A study of Mus musculus with 8 samples.

Results

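Colon epithelium of mice labelled as knockouts of the sialyltransferase gene St6galnac6 was compared with wild-type colon epithelium of the same mouse strain, C57BL/6J. The comparison uses 4 of the 8 RNA sequencing libraries of the study, namely 1 male and 1 female library labelled St6galnac6-/- and 1 male and 1 female wild-type library. Both genotypes were untreated, and the cells are labelled as primary colon epithelial cells. The labels do not say how the allele was made, how old the mice were or whether a library comes from a single animal, so p-values measure the spread between libraries. The other 4 libraries, from B3galt5D116A and B3gnt7-/- mice with 1 male and 1 female each, serve as a second reference and share the estimate of the spread. Of 24346 gene symbols, the 11483 that averaged 1 FPKM or more across these 4 libraries entered the comparison. FPKM are fragments scaled to transcript length and library size. Differences are in log2(FPKM + 1), where the change of a gene with low values comes out smaller than it is. Genes were ranked by their smallest shift. This is the smallest of the differences found when each St6galnac6-/- library is set against each wild-type library, and it is given only where the groups do not overlap.

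St6galnac6 encodes a Golgi enzyme that adds sialic acid to N-acetylhexosamine residues of glycolipids and glycoproteins. In human colon epithelium this enzyme is known for making disialyl Lewis a, a glycan of the healthy mucosa that is bound by inhibitory receptors of immune cells. The colon epithelium itself consists of absorptive colonocytes, mucus-secreting goblet cells, hormone-secreting enteroendocrine cells, tuft cells and the dividing cells of the crypt base. Besides absorption it senses bacteria through inflammasome receptors, presents antigen and relays growth factor and stress signals.

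The St6galnac6-/- libraries were somewhat deeper than wild-type. Rough relative depths estimated from the lowest FPKM steps were 1 and 1.05 for wild-type and 1.22 and 1.36 for St6galnac6-/-, and depth in reads is not known. Correlations of log2 values across genes, which are not independent replicates, were 0.985 between the wild-type libraries, 0.985 between the St6galnac6-/- libraries and 0.975 to 0.982 between the genotypes. The epithelial adhesion gene Epcam was at 953 and 876 FPKM in the wild-type libraries and 888 and 864 FPKM in the St6galnac6-/- libraries. Markers of other cells were mostly but not all low. The T cell receptor component Cd3e was under 1 FPKM in all 4 libraries, and so were the B cell gene Cd79a, the macrophage gene Csf1r and the collagen gene Col1a1. The filter was passed by 11 of 32 T and intraepithelial lymphocyte markers and 8 of 27 macrophage and dendritic cell markers. It was also passed by 2 of 17 B and plasma cell markers and 6 of 30 fibroblast, muscle and endothelial markers. In the text that follows, values of a pair of libraries are given with the male first, and values joined by "against" give St6galnac6-/- before wild-type.

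St6galnac6 itself (chr2:32599709-32620806 of mm10, plus strand, a protein-coding gene) was still read. It was at 368 and 343 FPKM in the wild-type libraries and 218 and 232 FPKM in the St6galnac6-/- libraries. Both mutant libraries lay below both wild-type libraries and below all 4 libraries of the other mutants, which spanned 363 to 495 FPKM. The mean was 63.2% of wild-type, a log2 difference of -0.66 (SE 0.17) that did not pass limma over all genes (adjusted p = 0.328). A gene-level value cannot show which exons were read. Relatives that also add sialic acid to N-acetylhexosamine residues were somewhat higher or overlapped. St6galnac2 was at 47.8 and 46.8 FPKM against 36.9 and 41 FPKM and St6galnac4 at 11 and 13.5 FPKM against 9.37 and 8.33 FPKM, neither past the test, and St6galnac1 overlapped between the genotypes. Among 18 tested sialyltransferases and sialic acid supply genes the median difference was 0.01, with 4 members whose groups did not overlap upward and 6 downward. These are 22.2% and 33.3% of the list, beside 24.1% and 23.8% of all genes tested.

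St8sia5, which extends sialic acid chains on gangliosides, ranked 12th among lower genes. It was at 1.89 and 5.61 FPKM in the wild-type libraries and 0.0947 and 0.0424 FPKM in the St6galnac6-/- libraries. Its log2 difference of -2.03 did not pass limma (adjusted p = 0.168), and the wild-type libraries themselves differed widely. In the other mutants St8sia5 was at 0.538 to 1.20 FPKM, also below both wild-type libraries. Sphingolipid and glycolipid genes, which supply the lipid acceptors of these enzymes, were lower without overlap in 13 of 26 (50%) and higher in 2 (7.69%). Over all genes tested the shares were 23.8% lower and 24.1% higher. The list had a median of -0.14 and 0 members past limma. Relative to the wild-type mean, its median level was -0.14 and -0.16 in St6galnac6-/- and -0.24 to -0.13 in the other mutants. The ceramide synthase Cers5 was at 19.5 and 18.9 FPKM against 27.8 and 27.4 FPKM, and the glucosylceramide synthase Ugcg at 38.3 and 32.2 FPKM against 49 and 45.4 FPKM. The sphingomyelinase-related Smpdl3b ran the other way, at 4.39 and 6.70 FPKM against 2.52 and 2.05 FPKM.

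Over all genes limma called 10 of 11483 (0.0871%), of which 3 were higher (0.0261%) and 7 lower (0.061%) in St6galnac6-/-. At an unadjusted p under 0.05 there were 470 higher (4.09%) and 579 lower genes (5.04%). The groups did not overlap for 2771 higher (24.1%) and 2733 lower genes (23.8%), so a gene without overlap is common here and a list's count has to be read against these shares. A smallest shift of at least log2 1 was seen for 15 higher (0.131%) and 24 lower genes (0.209%). The 25 first-ranked genes in each direction are described by function below, and the ranking ended between Ddit4 (0.87) and Hspa1b (0.86) above and between Mettl7a2 (-0.99) and Prdx6 (-0.99) below. Of these genes 3 of 25 higher and 7 of 25 lower passed limma. The calls changed when a library was left out. A genotype left with 1 library adds nothing to the estimate of the spread. Leaving out its male or its female library thus removes the same part of the spread and cannot point to 1 library. Without either wild-type library 0 of the 10 genes were called, without either St6galnac6-/- library Ang4 and Naip6 were, and without the male or the female B3gnt7-/- library 26 higher genes were called each time and 46 or 47 lower ones.

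**Figure D1:**
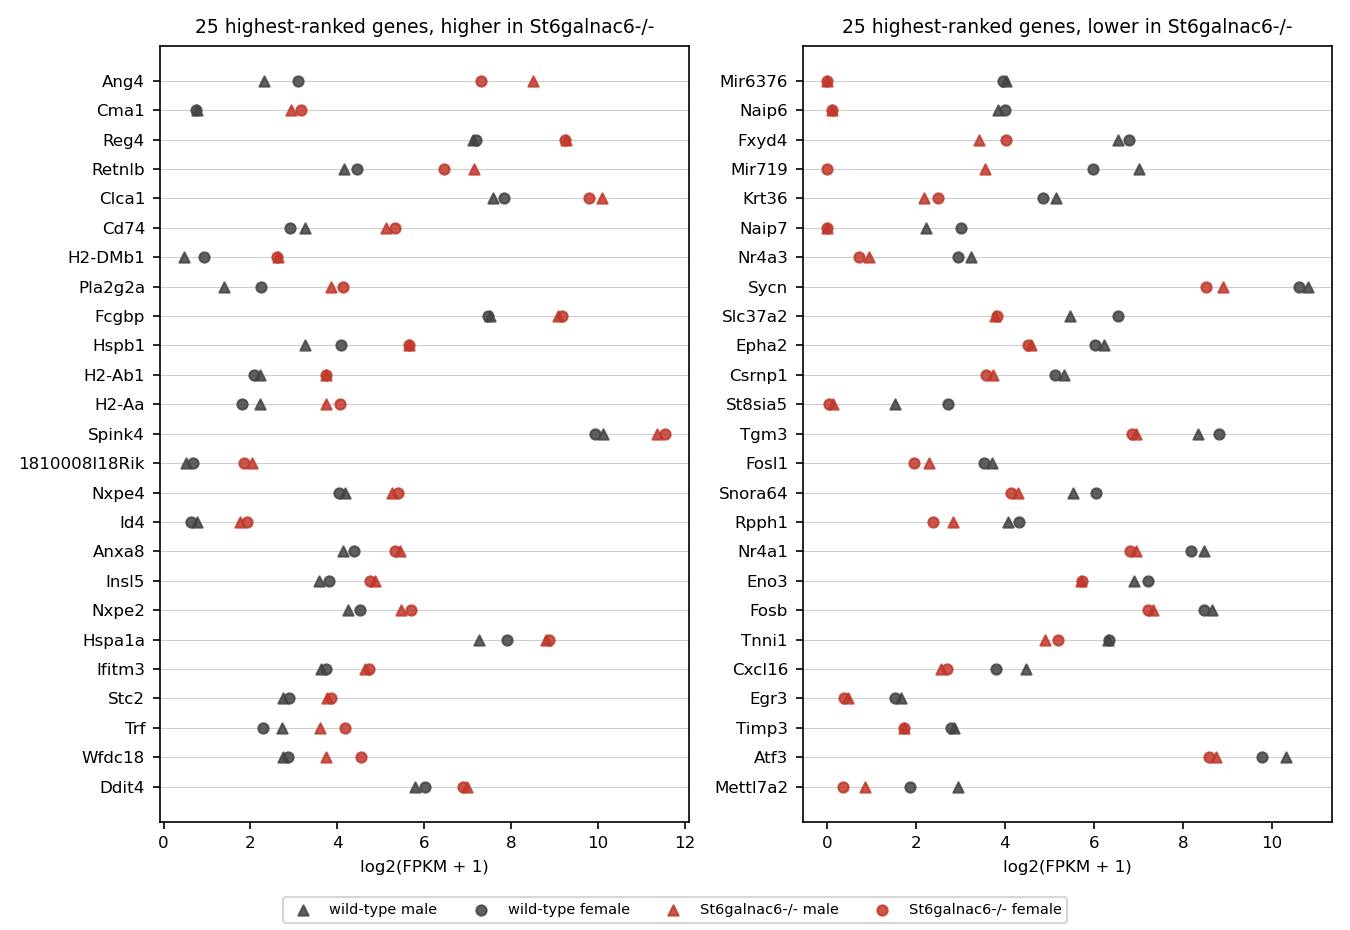
Levels of the 25 first-ranked genes in each direction, as log2(FPKM + 1) on the horizontal axis, with 1 point per library (triangles male, circles female; grey wild-type, red St6galnac6-/-). Genes are ordered by the smallest shift, from Ang4 (4.21) downward on the left and from Mir6376 (-3.95) on the right, and in every row the red and grey points are apart because the ranking requires it.

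The gene highest in rank was Ang4, a secreted ribonuclease that kills bacteria (chr14:51763878-51773590, minus strand). It was at 3.98 and 7.56 FPKM in the wild-type libraries and 361 and 158 FPKM in the St6galnac6-/- libraries. It rose by log2 5.20 (SE 0.57, limma adjusted p = 0.0433). Levels of 27.3 to 191 FPKM in the other mutants were also above wild-type, so the St6galnac6-/- libraries overlapped them. Paneth cells of the small intestine also make Ang4, and of 23 small intestinal markers 15 were under 1 FPKM in all 4 libraries. Their summed level, nearly all Mptx1, was 2629 and 1204 FPKM against 925 and 1073 FPKM, and the part of such cells in the result was not tested. The group means of Ang4 were 5.77 ± 2.53 and 259 ± 144 FPKM (SD, n = 2), and in bulk samples more cells of a type and more RNA per cell (or fewer and less) cannot be told apart. Pla2g2a, a secreted phospholipase that attacks bacterial membranes, rose as well (log2 2.18, SE 0.22, adjusted p = 0.0276). It was at 1.62 and 3.77 FPKM in the wild-type libraries and 13.5 and 16.6 FPKM in the St6galnac6-/- libraries, and at 6.03 to 7.19 FPKM in the other mutants. The annotation lists the C57BL/6J allele (chr4:138831857-138835186, plus strand) as a polymorphic pseudogene. The third gene that rose was Ifitm3, a membrane protein induced by interferon that blocks virus entry, at 11.3 and 12.3 FPKM in the wild-type libraries and 23.8 and 25.5 FPKM in the St6galnac6-/- libraries (log2 1.001, SE 0.11, adjusted p = 0.0431). In the other mutants Ifitm3 was at 17.6 to 21.7 FPKM, also above wild-type.

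Other products of the phospholipase and prostaglandin pathway were mixed. Of 19 tested members 7 were higher (36.8%) and 3 lower (15.8%) without overlap, beside 24.1% and 23.8% of all genes tested. The median was 0.08, and Pla2g2a was the single member past limma. Ptgr1, which inactivates leukotrienes and prostaglandins, was at 17.9 and 20.6 FPKM against 11.1 and 8.56 FPKM. The secreted phospholipase Pla2g2f was at 16.5 and 20.4 FPKM against 9.70 and 10.3 FPKM. The prostaglandin E2 receptor Ptger4 lay lower, at 28.1 and 28.2 FPKM against 52.3 and 40.3 FPKM. Interferon-induced genes were higher without overlap in 16 of 38 and lower in 7, with a median of 0.16 that became 0.01 without the St6galnac6-/- female library. The immunity-related GTPases Irgm1 and Igtp were at 16.4 and 18.9 FPKM against 11.1 and 12.2 FPKM and at 4.94 and 8.84 FPKM against 3.46 and 3.61 FPKM, while the chemokine Cxcl10 was at 4.54 and 6.26 FPKM against 11.8 and 9.18 FPKM. Apart from Ifitm3, 0 of these members passed limma.

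Goblet cell products took several of the first ranks. Reg4, a secreted lectin-like growth factor, was at 138 and 146 FPKM in the wild-type libraries and 617 and 601 FPKM in the St6galnac6-/- libraries, the mucus protease-like Clca1 at 1091 and 879.8 FPKM against 189 and 228 FPKM and the mucus-binding Fcgbp at 541 and 579 FPKM against 182 and 176 FPKM. None of these passed limma (adjusted p = 0.0956, 0.127 and 0.238). The antiparasitic Retnlb was at 140.4 and 87 FPKM against 16.7 and 21 FPKM and the protease inhibitor Spink4 at 2632 and 2979.6 FPKM against 1099 and 968 FPKM, again without passing (adjusted p = 0.291 and 0.0956). Neither did the related genes Nxpe4, at 37.5 and 41.2 FPKM against 17 and 15.3 FPKM, and Nxpe2, at 43.2 and 50.9 FPKM against 18 and 22 FPKM. All of these genes also lay above both wild-type libraries in every library of the other mutants. There Reg4 was at 318 to 681 FPKM and Spink4 at 1869 to 3225 FPKM. Upstream of these products, transcription factors of the Notch pathway and of secretory fate were higher without overlap in 13 of 19 tested members and lower in 0. Their median was 0.41, compared with 0.0025 over all genes. The zinc-finger repressor Gfi1, which keeps secretory progenitors from the enteroendocrine route, was at 3.33 and 2.60 FPKM in the wild-type libraries and 5.25 and 5.40 FPKM in the St6galnac6-/- libraries. Foxa2 was at 17 and 19.2 FPKM against 11.9 and 11 FPKM and the goblet cell factor Spdef at 55.5 and 53.1 FPKM against 37.6 and 41.4 FPKM. Hes1, a Notch target that opposes secretory fate, was higher too, at 172 and 172 FPKM against 112 and 133 FPKM. By limma 9 of the 19 members had an unadjusted p under 0.05 and 0 passed over all genes.

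Enteroendocrine hormones were among the higher genes, with unlike differences in the male and the female pair of libraries. With 1 library per sex and genotype, a difference between the sexes was not tested. Insl5, a hormone of the colonic L cell, was at 11 and 13 FPKM in the wild-type libraries and 28.4 and 26 FPKM in the St6galnac6-/- libraries and came close to the threshold (log2 1.12, SE 0.14, adjusted p = 0.0667). Its level was higher still in B3galt5D116A, at 51.8 and 46.2 FPKM. Peptide YY, a satiety hormone of the same cells (Pyy), was at 76.6 and 49.9 FPKM against 18.1 and 27.4 FPKM and proglucagon (Gcg) at 54.3 and 39.5 FPKM against 19 and 30.3 FPKM. In both cases the male libraries were further apart than the female ones. Over the 17 tested members of the list the median difference was 1.08 between the male libraries and -0.11 between the female libraries, and 8 were higher and 3 lower without overlap. Without the wild-type male library the median of 0.57 became -0.06. Ddc, which makes serotonin and is shared with other epithelial cells, was at 42.8 and 41.6 FPKM against 46.6 and 48.4 FPKM.

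Genes of antigen presentation by MHC class II held 4 of the 25 first ranks among higher genes. These molecules display peptides to helper T cells, and epithelium carries them under interferon gamma. The invariant chain Cd74 was at 8.53 and 6.55 FPKM in the wild-type libraries and 34 and 39.2 FPKM in the St6galnac6-/- libraries, the alpha chain H2-Aa at 12.3 and 15.7 FPKM against 3.69 and 2.49 FPKM, the beta chain H2-Ab1 at 12.3 and 12.3 FPKM against 3.65 and 3.27 FPKM, the peptide loader H2-DMb1 at 5.26 and 5.12 FPKM against 0.382 and 0.907 FPKM and H2-Eb1 at 4.46 and 4.92 FPKM against 2.18 and 1.40 FPKM. In each of these 5 genes the St6galnac6-/- libraries lay well above wild-type and close to each other. None passed limma over all genes (H2-Aa log2 1.88, SE 0.24, adjusted p = 0.0753; Cd74 log2 2.14, SE 0.35, adjusted p = 0.122), while all 5 had an unadjusted p under 0.05. Of the 10 tested members 5 were higher and 1 lower without overlap (median 0.68). Ctss, the protease that trims the invariant chain and the list's most abundant member, was at 177 and 163 FPKM against 211 and 199 FPKM. The master regulator Ciita was below the filter, at 0.393 and 0.527 FPKM against 0.0832 and 0.0790 FPKM. The B3gnt7-/- male library was as high, with Cd74 at 35.9 and 11.9 FPKM in that genotype and at 6.43 and 4.13 FPKM in B3galt5D116A.

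Markers of cells that carry MHC class II constitutively were measured in the same libraries. The dendritic cell integrin Itgax was at 0.178 and 0.119 FPKM against 0.270 and 0.154 FPKM and the macrophage gene Adgre1 at 0 and 0.0499 FPKM against 0 and 0.0322 FPKM. The B cell gene Ms4a1 was at 0.320 and 0.246 FPKM against 0.111 and 0.0529 FPKM. The pan-leukocyte gene Ptprc was lower, at 1.06 and 1.19 FPKM against 1.52 and 1.62 FPKM. Summed over 27 macrophage and dendritic cell markers the level was 251 and 235 FPKM against 299 and 296 FPKM, and 18 of these were under 1 FPKM in all 4 libraries. Ctss, whose levels are given above, is on this list too and made up most of the sum, so the sum mainly follows that gene. Over 32 T and intraepithelial lymphocyte markers the sum was 37.4 and 31.1 FPKM against 40.5 and 34.2 FPKM, and over 17 B and plasma cell markers 122 and 116.2 FPKM against 132 and 114 FPKM. Of these markers 19 and 14 were under 1 FPKM in all 4 libraries, and 2 of the B and plasma cell markers passed the filter. MHC class I genes, which every epithelial cell carries, had a median of -0.02. Of 24 tested members 3 were higher (12.5%) and 7 lower (29.2%) without overlap, beside 24.1% and 23.8% of all genes tested.

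The promoters of H2-Aa and H2-Eb1 hold the Y box, CTGATTGG. This element is bound by the factor NF-Y as part of the conserved MHC class II promoter module. Both promoters are shown because they hold it. Among 7 tested members with a RefSeq promoter (GRCm38.p6; 300 bases, both strands searched), 2 had the letters CTGATTGG (28.6%), compared with 4.1% of 32851 promoters. Here and below, a gene counts if any of its promoters has a match, while shares of all promoters count single promoters. The match is a description of the sequence, and these promoters were chosen for printing after the search. The 250 bases before the start of H2-Aa (chr17:34287824-34288073, minus strand) and H2-Eb1 (chr17:34305617-34305866, plus strand) read as follows, with the Y box in capitals.

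H2-Aa: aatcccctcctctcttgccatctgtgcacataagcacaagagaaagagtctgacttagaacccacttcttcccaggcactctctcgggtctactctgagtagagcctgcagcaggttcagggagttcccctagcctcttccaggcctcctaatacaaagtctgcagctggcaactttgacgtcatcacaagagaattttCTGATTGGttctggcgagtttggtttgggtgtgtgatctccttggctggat

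H2-Eb1: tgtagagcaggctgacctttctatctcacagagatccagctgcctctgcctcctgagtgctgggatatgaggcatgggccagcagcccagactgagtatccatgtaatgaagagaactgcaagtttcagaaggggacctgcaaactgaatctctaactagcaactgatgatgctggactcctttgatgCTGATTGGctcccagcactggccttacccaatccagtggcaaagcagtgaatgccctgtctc

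Cma1 ranked second among the higher genes. It encodes a chymase, a protease stored in mast cell granules, and was at 0.709 and 0.673 FPKM in the wild-type libraries and 6.70 and 7.995 FPKM in the St6galnac6-/- libraries (log2 2.30, SE 0.30, adjusted p = 0.0753). In the other mutants it was at 0.702 to 2.61 FPKM, so all 4 lay below both St6galnac6-/- libraries. The mucosal mast cell proteases were below the filter and ran the same way, Mcpt1 at 2.36 and 1.103 FPKM against 0.125 and 0 FPKM and Mcpt2 at 0.994 and 0.494 FPKM against 0.268 and 0 FPKM. Other mast cell genes were at or near 0, apart from Kit. Cpa3 and Mcpt4 were listed at 0 in all 4 libraries, Tpsb2 was at 0.0959 and 0.257 FPKM against 0 and 0.221 FPKM and the receptor Kit, which crypt cells also carry, at 12.7 and 12.1 FPKM against 9.40 and 14.4 FPKM. Summed over 22 neutrophil, mast cell and eosinophil markers, of which 19 were under 1 FPKM in all 4 libraries and 7 at 0, the level was 23.9 and 23.6 FPKM against 11.4 and 16.0 FPKM. The part of such cells in the result was not tested.

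Heat shock chaperones, which refold proteins after thermal or oxidative stress, were higher without overlap in 18 of 22 tested members and lower in 0, with a median of 0.38 that ran from 0.21 to 0.61 over the alternative settings. The small chaperone Hspb1 was at 8.54 and 16.1 FPKM in the wild-type libraries and 49.2 and 49.2 FPKM in the St6galnac6-/- libraries. The inducible Hsp70 genes Hspa1a and Hspa1b, near-identical copies whose reads cannot be assigned with certainty, were at 446 and 466 FPKM against 153 and 237 FPKM and at 501 and 515 FPKM against 184 and 276 FPKM. The co-chaperone Hsph1 was at 106 and 135 FPKM against 54.3 and 70.6 FPKM and the mitochondrial Hspd1 at 329 and 349 FPKM against 201 and 237 FPKM. By limma 0 of the 22 had an unadjusted p under 0.05. The B3gnt7-/- female library, which enters the shared spread, stands apart with Hspb1 at 3.002 FPKM and Hspa1a at 77.9 FPKM, below every other library. Levels in both B3galt5D116A libraries and the B3gnt7-/- male library were close to those of St6galnac6-/-. The heat shock element (GAA, NN, TTC, NN, GAA in that order) was found in promoters of 4 of 18 genes of the list (22.2%, compared with 0.603% of all promoters). These genes were Chordc1, Hspd1, Hspe1 and Hsph1.

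Several genes of low oxygen and nutrient stress lay beside them. Stc2, a secreted glycoprotein induced by the unfolded protein response, was at 5.77 and 6.35 FPKM in the wild-type libraries and 12.7 and 13.5 FPKM in the St6galnac6-/- libraries (log2 0.9960, SE 0.17, adjusted p = 0.124). Ddit4, an inhibitor of mTOR signalling, was at 125 and 118 FPKM against 54.5 and 63.7 FPKM. The oxygen sensor Egln3, itself a target of hypoxia-inducible factor, was at 15.9 and 16.5 FPKM against 8.43 and 8.64 FPKM and Ankrd37, another such target, at 22 and 15.5 FPKM against 9.41 and 7.96 FPKM. Neither list had a common direction. Glycolysis and hypoxia genes were higher without overlap in 8 of 32 (25%) and lower in 4 (12.5%), with a median of 0.06. Atf4 targets were higher in 7 of 23 (30.4%) and lower in 5 (21.7%), with a median of 0.08. Over all genes tested the shares were 24.1% higher and 23.8% lower. Without the St6galnac6-/- female library the Atf4 median was -0.05, and without the wild-type female library the glycolysis and hypoxia median was -0.03. Endoplasmic reticulum folding genes were higher in 15 of 36 and lower in 3, with the disulfide isomerase Pdia5 at 46.3 and 49.1 FPKM against 29.5 and 34.7 FPKM and a median of 0.10.

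Further first-ranked higher genes belong to none of these groups. Id4, an inhibitor of basic helix-loop-helix factors, was at 2.39 and 2.76 FPKM against 0.708 and 0.538 FPKM. The annexin Anxa8 was at 42.6 and 39 FPKM against 16.6 and 19.8 FPKM, the iron carrier transferrin (Trf) at 11.2 and 17 FPKM against 5.57 and 3.87 FPKM and the secreted Wfdc18 at 12.4 and 22.4 FPKM against 5.73 and 6.31 FPKM. The transcript 1810008I18Rik was at 3.13 and 2.64 FPKM against 0.422 and 0.602 FPKM. None of these passed limma.

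Of 30 mitotic genes 29 were higher and 0 lower without overlap, with a median of 0.70. The kinase Cdk1, which drives entry into mitosis, was at 9.17 and 9.60 FPKM in the wild-type libraries and 12.6 and 22.5 FPKM in the St6galnac6-/- libraries, and the spindle protein Nusap1 at 10.6 and 18.2 FPKM against 6.75 and 7.04 FPKM. The motor protein Kif20a was at 8.47 and 13.5 FPKM against 6.27 and 6.18 FPKM and Dlgap5 at 5.81 and 8.80 FPKM against 4.19 and 4.08 FPKM. For all of these the female St6galnac6-/- library was the higher of the pair. The median difference was 0.34 between the male and 1.01 between the female libraries, and 8 of the 30 had an unadjusted p under 0.05 by limma with 0 past the threshold. Genes of DNA replication were less uniform, with 8 of 36 higher (22.2%) and 1 lower (2.78%) without overlap. The higher share was below the 24.1% of all genes tested. The medians of this list were -0.0025 in males and 0.33 in females. Without the St6galnac6-/- female library the mitotic median was 0.17 and the replication median -0.04, and without the male library the mitotic median was 1.19. Wnt target and crypt stem cell genes were higher without overlap in 13 of 23 and lower in 2 (median 0.19), among them the stem cell gene Smoc2 at 16.1 and 16.5 FPKM against 7.65 and 11.5 FPKM and the guidance receptor Ephb3 at 11.2 and 11.8 FPKM against 7.80 and 8.48 FPKM.

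**Figure D2:**
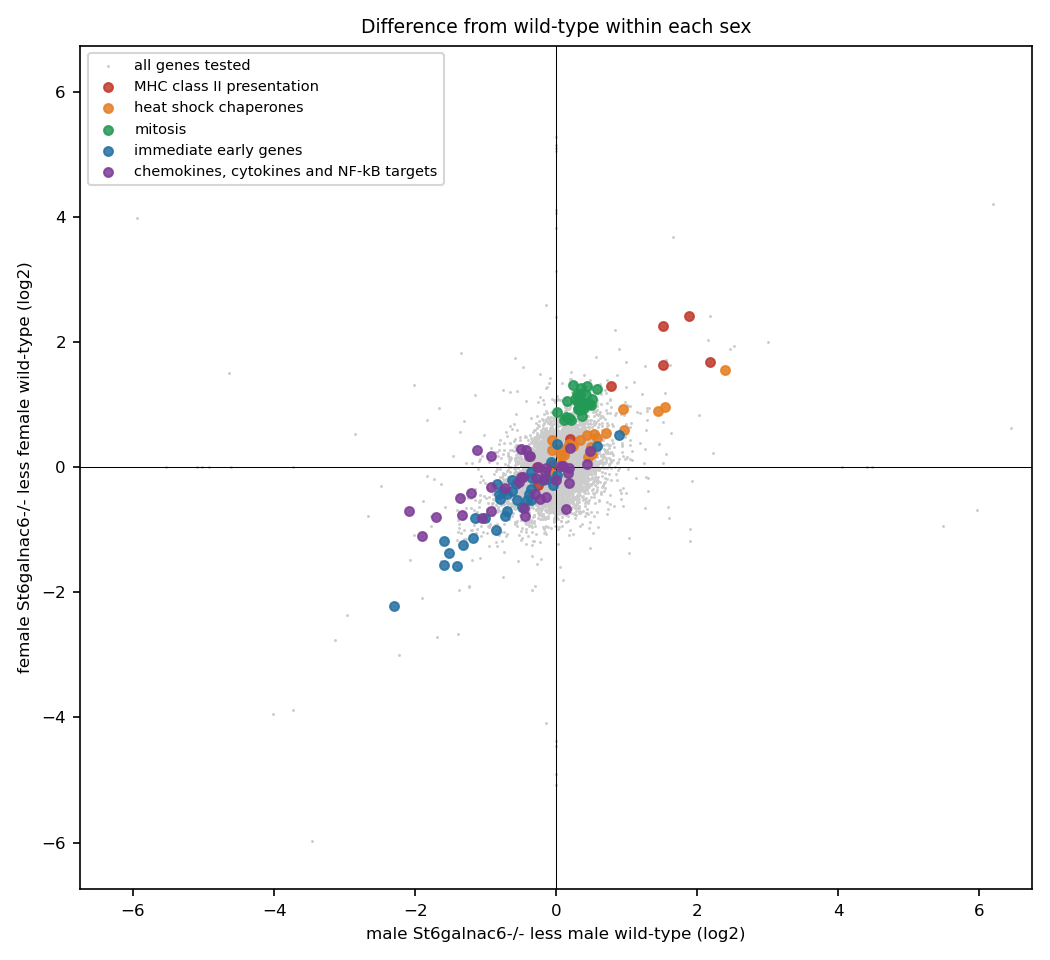
Difference of each of 11483 genes between the St6galnac6-/- and wild-type library of the same sex, males on the horizontal and females on the vertical axis (log2(FPKM + 1)), with 5 gene lists coloured. Immediate early genes lie mostly at lower left (median -0.63 in males and -0.43 in females), and mitotic genes lie above the diagonal at upper right (0.34 and 1.01).

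The highest-ranked lower gene that passed limma was Naip6 (chr13:100281121-100317674, minus strand). NAIP proteins sense bacterial flagellin and secretion needles in the cytosol and start the NLRC4 inflammasome, and epithelium depends on them to expel infected cells. Naip6 was at 13.4 and 15 FPKM in the wild-type libraries and 0.0784 and 0.0818 FPKM in the St6galnac6-/- libraries. It fell by 3.81 on the log2 scale (SE 0.21, limma adjusted p = 0.00366) to 0.564% of wild-type. All 4 libraries of the other mutants were at 12 to 20.4 FPKM. Naip6 also passed the contrast with the other mutants, in which wild-type libraries enter the shared spread alone (log2 -3.85, SE 0.18, adjusted p = 6.26e-04). Its copy Naip7 had 0 FPKM in the male and the female mutant and 3.69 and 7.04 FPKM in wild-type, with 1.73 to 5.04 FPKM in the other mutants, and did not pass (adjusted p = 0.0753).

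The remaining family members were retained. Naip5, a flagellin sensor, was at 31.2 and 35.5 FPKM in the wild-type libraries and 43.4 and 40.2 FPKM in the St6galnac6-/- libraries. Naip1 was at 48.5 and 48.4 FPKM against 57.5 and 58.3 FPKM and Naip2 at 27.9 and 27 FPKM against 28.9 and 30.8 FPKM. Naip1, Naip2, Naip5 and Naip6 lie in 1 cluster on chromosome 13 as copies with similar sequence (Naip7 has no position in the annotation used), so reads may have been shared among them and the split between Naip5, Naip6 and Naip7 is uncertain. Summed over these 3, the level was 43.5 and 40.3 FPKM against 48.3 and 57.6 FPKM, and summed over all 5 it was 119.9 and 115.7 FPKM against 135 and 147 FPKM. Within 1 Mb of Naip6, 22 other tested genes held 9 higher and 6 lower genes without overlap and 0 past limma. The shares over all genes were 24.1% higher and 23.8% lower. Over the whole list of bacterial sensors and inflammasome genes 14 of 27 were lower and 4 higher without overlap (median -0.15). The inflammasome product Il18, a cytokine of the epithelium, was at 98.2 and 122 FPKM against 188 and 198 FPKM (log2 -0.81, adjusted p = 0.196).

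**Figure D3:**
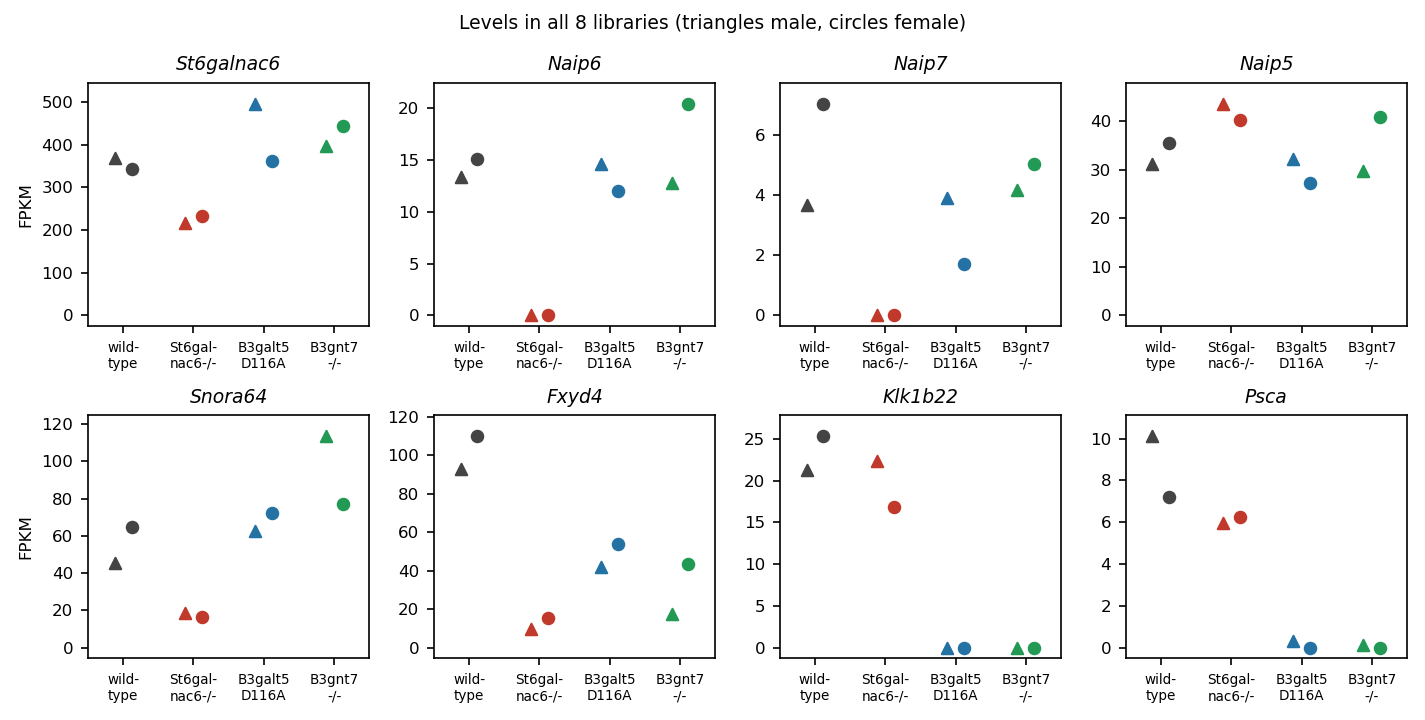
FPKM of 8 genes in all 8 libraries of the study on linear axes that start near 0 (triangles male, circles female). Naip6 and Naip7 are at or near 0 in St6galnac6-/- alone, St6galnac6 is at 218 and 232 FPKM there, and Klk1b22 and Psca are at or near 0 in the other mutants.

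Ion transport of the distal colon was represented by Fxyd4 (chr6:117933559-117937692, minus strand), a small subunit that tunes the sodium-potassium pump and is induced by aldosterone. It was at 92.8 and 109.9 FPKM in the wild-type libraries and 9.67 and 15.4 FPKM in the St6galnac6-/- libraries and fell by 2.95 on the log2 scale (SE 0.23, adjusted p = 0.0213). The other mutants were between, at 17.8 to 53.9 FPKM. The colonic proton-potassium pump Atp12a was at 13.1 and 19 FPKM against 35.9 and 60.8 FPKM (log2 -1.51, adjusted p = 0.127), and the sodium-proton exchanger Slc9a2 at 70.1 and 66.3 FPKM against 90.6 and 93.8 FPKM. The mineralocorticoid receptor Nr3c2 was at 27.4 and 28.5 FPKM against 33.1 and 36.3 FPKM. In contrast, the potassium channel subunit Kcne3 and the chloride-loading transporter Slc12a2, both used for secretion, were higher, at 245 and 222 FPKM against 169 and 139 FPKM and at 80.1 and 73.7 FPKM against 52 and 61.4 FPKM. Over 24 tested sodium and potassium transport genes 9 were lower (37.5%) and 4 higher (16.7%) without overlap, beside 23.8% and 24.1% of all genes tested. Fxyd4 was the single member past limma, and the median of -0.07 became 0.01 after quantile normalization.

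Immediate early genes gave 3 of the 7 lower calls. They are switched on within minutes by growth factors, calcium, cAMP or tissue handling and mostly encode transcription factors. Nr4a3, an orphan nuclear receptor, was at 8.51 and 6.66 FPKM in the wild-type libraries and 0.935 and 0.651 FPKM in the St6galnac6-/- libraries and fell by 2.26 (SE 0.22, adjusted p = 0.0237). Its relative Nr4a1 was at 355 and 288 FPKM in the wild-type libraries and 123 and 111 FPKM in the St6galnac6-/- libraries and fell by 1.45 (SE 0.13, adjusted p = 0.0237), while Nr4a2 was at 4.39 and 5.22 FPKM against 7.001 and 6.45 FPKM. Csrnp1, a nuclear protein induced with them, was at 39.1 and 34.1 FPKM in the wild-type libraries and 12.3 and 10.9 FPKM in the St6galnac6-/- libraries and fell by 1.58 (SE 0.14, adjusted p = 0.0237). In all of these the libraries of the other mutants were near those of St6galnac6-/-, at 0.884 to 1.58 FPKM for Nr4a3 and at 108 to 152 FPKM for Nr4a1.

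The AP-1 and stress factors Fosb, Fosl1, Egr3 and Atf3 were also among the 25 first-ranked lower genes. Fosb was at 159 and 148 FPKM against 401 and 352 FPKM, Fosl1 at 3.90 and 2.88 FPKM against 12 and 10.6 FPKM, Egr3 at 0.393 and 0.317 FPKM against 2.15 and 1.90 FPKM and Atf3 at 426 and 382 FPKM against 1278 and 869 FPKM. None of the 4 passed limma, with adjusted p = 0.0667 for Fosb and 0.0753 for Atf3. Other AP-1 and Egr members shifted less, with Fos at 1128 and 999.6 FPKM against 1501 and 1431 FPKM, Egr1 at 430.0 and 435 FPKM against 547 and 489.7 FPKM and Jun at 601 and 561 FPKM against 657 and 636 FPKM. Over the list 31 of 36 tested members were lower and 2 higher without overlap (median -0.54), 23 had an unadjusted p under 0.05 on the lower side, and 3 passed limma. The exceptions were Myc, at 36.2 and 34.2 FPKM against 19 and 23.5 FPKM, and Gadd45b, at 49.3 and 43.8 FPKM against 32.7 and 34.4 FPKM.

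Promoters of Nr4a1 and Nr4a3 are shown since both genes fell and both hold 4 copies of CGTCA, the core of the cAMP response element, counted on either strand. Of 32851 mouse promoters 0.231% have as many in 300 bases. Among 27 immediate early genes with a RefSeq promoter 16 had at least 1 core (59.3%, compared with 20.8% of all promoters), and 3 had the full palindrome TGACGTCA (11.1%, compared with 1.79%), which contains the core. The core and these promoters were chosen after the palindrome had given no match in the first promoters looked at. The CArG box of serum response factor was in 3 (11.1%, compared with 1.63%). The windows are the 250 bases before the RefSeq start of Nr4a1 (chr15:101266596-101266845, plus strand, inside the longer gene model of GENCODE) and of Nr4a3 (chr4:48045055-48045304, plus strand), with the core or its reverse complement TGACG in capitals.

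Nr4a1: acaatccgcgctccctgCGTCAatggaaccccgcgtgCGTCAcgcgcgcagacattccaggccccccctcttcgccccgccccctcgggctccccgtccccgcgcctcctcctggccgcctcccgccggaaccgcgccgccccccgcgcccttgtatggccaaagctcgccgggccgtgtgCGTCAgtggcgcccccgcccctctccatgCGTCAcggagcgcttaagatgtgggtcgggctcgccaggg

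Nr4a3: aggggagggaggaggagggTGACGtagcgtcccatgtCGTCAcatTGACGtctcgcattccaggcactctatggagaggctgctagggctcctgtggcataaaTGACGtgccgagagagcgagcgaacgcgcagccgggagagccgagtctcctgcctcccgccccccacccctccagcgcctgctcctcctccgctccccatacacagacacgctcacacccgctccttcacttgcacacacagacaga

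In Nr4a1 the copies begin 233, 213, 69 and 40 bases before the start, and in Nr4a3 231, 213, 205 and 147 bases before it.

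Chemokines, cytokines and targets of NF-kB, the factor that carries inflammatory signals, were lower without overlap in 20 of 39 tested members and higher in 3 (median -0.31). Cxcl16, a membrane-bound chemokine, was at 21.2 and 13 FPKM in the wild-type libraries and 4.95 and 5.55 FPKM in the St6galnac6-/- libraries (log2 -1.498, SE 0.31, adjusted p = 0.195). The feedback inhibitors Tnfaip3 and Nfkbia were at 39.1 and 48.5 FPKM against 129.7 and 85.3 FPKM and at 122 and 119 FPKM against 255 and 209.5 FPKM, and the cytokine Tnf at 6.67 and 7.43 FPKM against 18.4 and 13.3 FPKM. None of the 39 passed limma and 11 had an unadjusted p under 0.05. The acute phase protein Saa1, which colonocytes secrete, was at 437 and 418 FPKM against 851 and 999 FPKM.

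Ligands of the EGF receptor drive epithelial growth and repair. The ligands Hbegf and Areg were at 96.3 and 81.4 FPKM against 240.4 and 181 FPKM and at 199 and 196 FPKM against 529 and 316 FPKM, and the feedback inhibitor Errfi1 at 106 and 101 FPKM against 199 and 151 FPKM. Hbegf came closest to the threshold (log2 -1.23, SE 0.16, adjusted p = 0.0753). The ETS factor Etv4 was higher, at 7.44 and 15 FPKM against 6.29 and 5.01 FPKM. Of 26 tested members 14 were lower and 4 higher without overlap (median -0.14). The ephrin receptor Epha2, a kinase of the cell surface, ranked 10th among lower genes. It was at 73.5 and 64.3 FPKM in the wild-type libraries and 23.1 and 22 FPKM in the St6galnac6-/- libraries. The ephrin Efnb2, which is of another class than the ligands of Epha2, was at 28.1 and 31.4 FPKM against 48.5 and 42.3 FPKM. Timp3, an inhibitor of the metalloproteases that shed EGF receptor ligands, was at 6.27 and 5.91 FPKM in the wild-type libraries and 2.31 and 2.34 FPKM in the St6galnac6-/- libraries. It was near the same level in all 4 libraries of the other mutants (2.03 to 2.66 FPKM).

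Genes of the keratinised and surface epithelium were lower in part. The hair-type keratin Krt36 (chr11:100102007-100105626, minus strand) was at 34.4 and 27.9 FPKM in the wild-type libraries and 3.54 and 4.62 FPKM in the St6galnac6-/- libraries and fell by 2.66 (SE 0.25, adjusted p = 0.0237). Levels in the other mutants were also low, at 2.098 to 4.42 FPKM. The transglutaminase Tgm3, which cross-links structural proteins, was at 123 and 115 FPKM against 320.3 and 448 FPKM, the envelope precursor Sprr1a at 90.1 and 87.3 FPKM against 235 and 173 FPKM and the keratin Krt23 at 7.05 and 7.04 FPKM against 12 and 12.7 FPKM. Over 25 tested keratins and envelope genes 10 were lower and 4 higher without overlap. The slow-muscle troponin Tnni1 (chr1:135779434-135810989, plus strand), named for its role in the sarcomere, was at 78.2 and 80.5 FPKM in the wild-type libraries and 28.9 and 35.5 FPKM in the St6galnac6-/- libraries and fell by 1.28 (SE 0.12, adjusted p = 0.0237), while of 6 tested fibroblast, muscle and endothelial markers 0 were higher and 1 lower without overlap. Tight junction genes were lower without overlap in 17 of 24 and higher in 2 (median -0.20), with the claudin Cldn4 at 73.2 and 53.9 FPKM against 180.3 and 129 FPKM, the polarity protein Pard6b at 20.1 and 20.9 FPKM against 45.2 and 39 FPKM and occludin (Ocln) at 38.7 and 36.5 FPKM against 66 and 55.5 FPKM.

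Among metabolic genes, Prdx6, a peroxiredoxin that reduces lipid peroxides, was at 570.1 and 545 FPKM against 1452 and 1129.7 FPKM and the glutathione transferase Gstt1 at 23.8 and 21.9 FPKM against 33.7 and 36.3 FPKM, in a list of glutathione and Nrf2 targets with 14 of 30 lower and 4 higher without overlap. The muscle-type enolase Eno3 was at 51.6 and 51.9 FPKM against 119 and 146 FPKM (log2 -1.33, adjusted p = 0.179). Slc37a2, a sugar phosphate transporter, was at 43.3 and 91.6 FPKM in the wild-type libraries and 12.8 and 13.2 FPKM in the St6galnac6-/- libraries. Its wild-type libraries were far apart, and its difference did not pass (adjusted p = 0.189). Oxidative phosphorylation genes were lower without overlap in 22 of 40 and higher in 1, by a median of -0.10. Fatty acid and triglyceride synthesis genes were lower in 15 of 29 and higher in 0 (median -0.15), and cytochrome P450, UGT and sulfotransferase genes lower in 16 of 39 and higher in 1 (median -0.21). The P450, UGT and sulfotransferase median was -0.02 between the male and -0.46 between the female libraries, and 0.02 without the St6galnac6-/- female library. The oxidative phosphorylation median was 0.01 after quantile normalization. Sycn, a secretory granule protein known from the pancreas, was at 1788 and 1545 FPKM in the wild-type libraries and 476 and 364 FPKM in the St6galnac6-/- libraries (log2 -1.995, adjusted p = 0.142), whereas the pancreatic acinar list had 13 of 15 members under 1 FPKM in all 4 libraries. The methyltransferase-like Mettl7a2 stood at 0.822 and 0.295 FPKM against 6.69 and 2.63 FPKM.

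Genes of nutrient uptake lay in the same range. Among amino acid and peptide transporters 10 of 19 were lower and 4 higher without overlap (median -0.21), with the peptide transporter Slc15a1 at 14.6 and 13.3 FPKM against 22.4 and 25.4 FPKM and the amino acid transporter Slc6a14 at 234 and 205 FPKM against 313 and 357 FPKM. Among sugar, short-chain fatty acid and vitamin transporters 10 of 20 were lower and 2 higher, with the folate transporter Slc46a1 at 6.09 and 5.62 FPKM against 14.2 and 10.3 FPKM and the butyrate transporter Slc16a1 at 101 and 91.3 FPKM against 120.4 and 120.5 FPKM. The nuclear receptor Nr1i3, which controls drug metabolism, was at 0.983 and 0.879 FPKM against 2.24 and 3.04 FPKM, and nuclear receptors as a list were lower in 15 of 28 and higher in 1. None of these members passed limma.

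**Figure D4:**
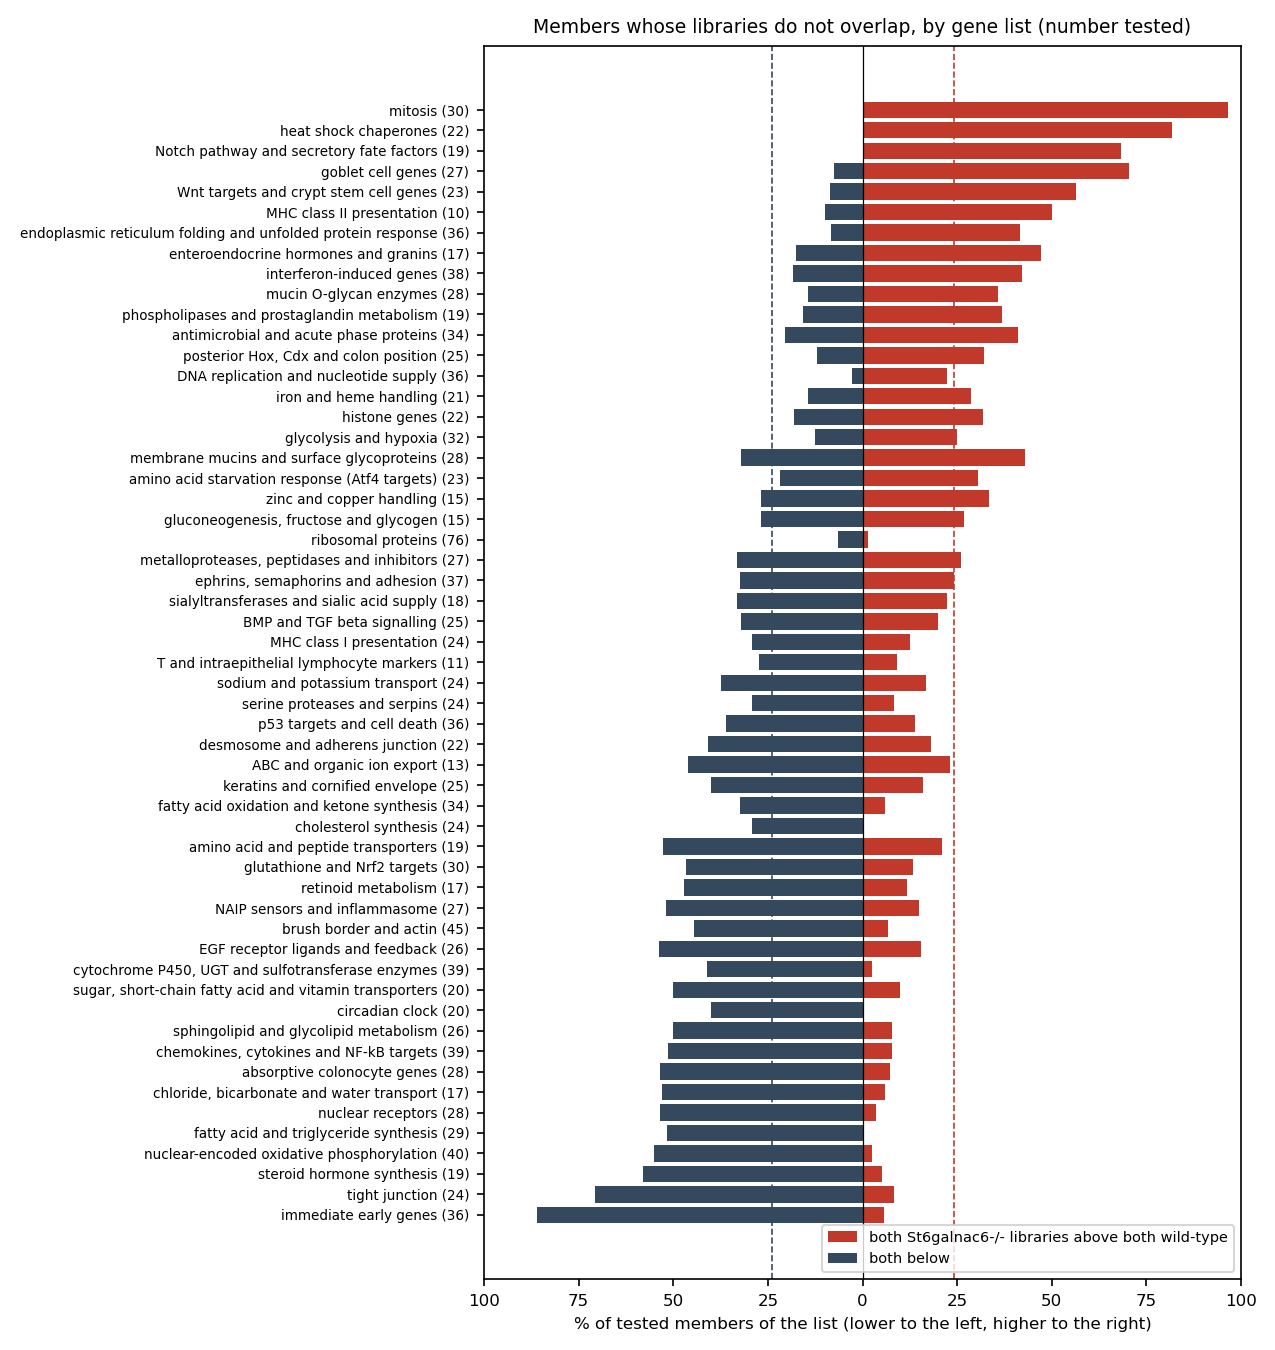
Share of tested members of each gene list (percent, number tested in brackets; lists with at least 10) whose St6galnac6-/- libraries both lay above (red, right) or both below (dark, left) both wild-type libraries; dashed lines give the share of all 11483 genes, 24.1% higher and 23.8% lower. Mitotic genes (29 of 30 higher) are at the top and immediate early genes (31 of 36 lower) at the bottom.

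Small RNA genes made up 4 of the 25 first-ranked lower genes. The libraries were made with an mRNA kit, so these values come from fragments over the locus and do not measure the mature RNA. The hairpin Mir6376 (chr6:88104128-88104258, minus strand, overlapping Rpn1 on the other strand) was at 15.2 and 14.4 FPKM in the wild-type libraries and 0 and 0 FPKM in the St6galnac6-/- libraries, and was also listed at 0 in both other mutant females. Mir719 (chr14:60228806-60228915, minus strand, overlapping Nupl1 on the same strand) was at 128 and 62.2 FPKM in the wild-type libraries and 10.7 and 0 FPKM in the St6galnac6-/- libraries. Neither passed limma (adjusted p = 0.261 and 0.116), and the surrounding Rpn1 and Nupl1 were at 84.5 and 96.4 FPKM against 76.7 and 73.0 FPKM and at 27.6 and 26.7 FPKM against 24.2 and 24.2 FPKM. Their mature sequences from RefSeq (GRCm38.p6), with the seed at bases 2 to 8 in capitals, share no seed.

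mmu-miR-6376: cAGUGUGGccaauuggagauua

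mmu-miR-719: aUCUCGGCuacagaaaaauguu

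Snora64, a small nucleolar RNA that guides pseudouridylation of ribosomal RNA, lies inside the ribosomal protein gene Rps2 (chr17:24720772-24720905, plus strand). It was at 45.5 and 64.8 FPKM in the wild-type libraries and 18.7 and 16.7 FPKM in the St6galnac6-/- libraries, and at 62.6 to 113 FPKM in the other mutants. The difference from wild-type did not pass (log2 -1.57, SE 0.23, adjusted p = 0.0956), but that from the other mutants did (log2 -2.104, SE 0.20, adjusted p = 0.0424). Rps2 itself was at 1322 and 1143 FPKM against 1313 and 1228 FPKM. Rpph1, the RNA of ribonuclease P, was at 6.12 and 4.26 FPKM against 15.7 and 18.8 FPKM.

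The second contrast set St6galnac6-/- against the mean of the other mutants. Wild-type libraries enter its estimate of the spread but not the difference itself. Limma called 4 of 11483 genes (0.0348%), with 2 higher (0.0174%) and 2 lower (0.0174%), and 403 had an unadjusted p under 0.05. Klk1b22, a kallikrein protease, was at 22.3 and 16.8 FPKM in St6galnac6-/- and at 21.3 and 25.3 FPKM in wild-type, and it was listed at 0 in all 4 other mutant libraries (adjusted p = 1.84e-04). Psca, a cell surface protein of epithelia, was at 5.97 and 6.27 FPKM in St6galnac6-/-, at 10.1 and 7.20 FPKM in wild-type and at 0 to 0.326 FPKM in the others (adjusted p = 0.00245). For these 2 genes the difference from wild-type did not pass limma (adjusted p = 0.727 and 0.565), which does not show equal levels. Klk1b22 overlapped between St6galnac6-/- and wild-type, while Psca was lower in both St6galnac6-/- libraries than in both wild-type libraries. The 2 lower genes were Naip6 and Snora64.

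Several of the groups above were at similar levels in the other mutants, which share the wild-type libraries in any comparison with them. The median level of immediate early genes, relative to the wild-type mean, was -0.52 and -0.57 in St6galnac6-/- and between -0.59 and -0.32 in the other 4 libraries. For mitotic genes it was 0.29 and 1.09, with 0.03 to 0.81 in the other mutants. For heat shock chaperones it was 0.37 and 0.36, with -0.64 to 0.60 in the other mutants. For goblet cell genes it was 0.37 and 0.47, with 0.24 to 0.43 in the other mutants. Chemokines, cytokines and NF-kB targets were at -0.35 and -0.21, with -0.41 to -0.26 in the others. Tight junction genes were at -0.19 and -0.22, with -0.29 to -0.13 in the others. MHC class II genes stood at 0.73 and 0.62 in St6galnac6-/-, at 0.44 and 0.25 in B3gnt7-/- and at -0.19 and -0.22 in B3galt5D116A. For the Notch and secretory fate factors the medians were 0.38 and 0.35 in St6galnac6-/- and 0.04 to 0.19 in the others, and Gfi1 was higher than in the other mutants by log2 0.60 at an unadjusted p of 0.00621 (limma), which did not pass over all genes.

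**Figure D5:**
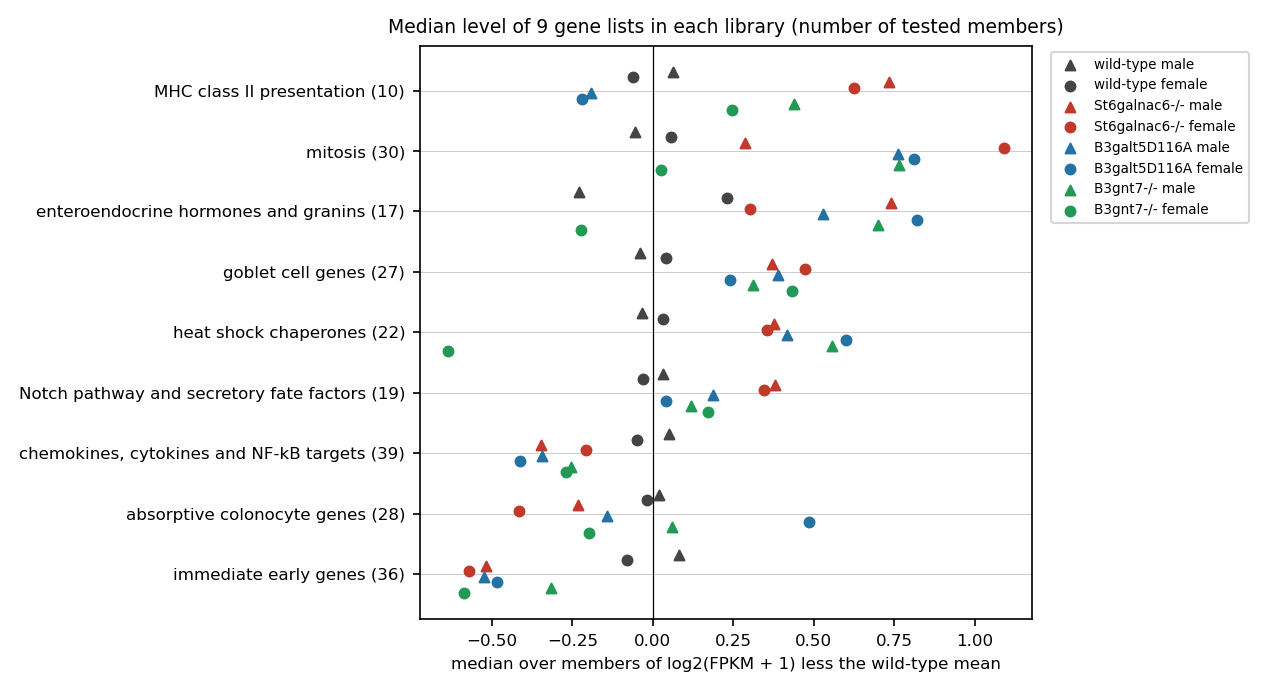
Median over the tested members of 9 gene lists of log2(FPKM + 1) less the wild-type mean of the gene, for each of the 8 libraries (horizontal axis; triangles male, circles female). Red points (St6galnac6-/-) lie apart from the blue and green points of the other mutants for MHC class II genes (0.73 and 0.62) and for Notch and secretory fate factors (0.38 and 0.35). They also lie apart for absorptive colonocyte genes (-0.23 and -0.42, with -0.20 to 0.48 in the other mutants), and lie among them for immediate early genes. As single genes, Cd74, H2-Aa and H2-Ab1 overlapped the other mutants, while H2-DMb1 did not.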

How the data were processed

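The study measured polyadenylated RNA of mouse colon epithelial cells in 8 libraries, made with a stranded mRNA kit per the labels' protocols. The deposited values are FPKM per gene symbol, 1 file per library, made by the authors before deposit; the tools given are Cuffdiff 2.2.1, TopHat2 2.1.1, SAMtools 0.1.18 and Bowtie2 2.2.8, with build mm10, per the submitters' processing notes. Read counts and depth in reads are not known, so precision is given by the spread between libraries alone.

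From these values log2(FPKM + 1) was computed for the 11483 of 24346 symbols with a mean of at least 1 FPKM in the 4 libraries compared. All 8 libraries were fitted with limma 3.58.1 (R 4.3.3), with genotype and sex as terms and a trended prior, leaving 3 residual degrees of freedom. Limma p-values are two-sided and adjusted by Benjamini-Hochberg over all 11483 genes, and adjusted p under 0.05 counts as passing. Adjusted p-values in the report come from that fit unless stated. On simulated data with 100 genes changed by log2 1 and 100 by log2 2 in this comparison, 53% and 93% were recovered among 11483 genes, and 9 unchanged genes were called. Male and female libraries share only their sex; the deviations of the male wild-type and male St6galnac6-/- libraries had a correlation of 0.0167 across genes.

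The genes named are St6galnac6, those past limma, the 25 first-ranked in each direction, up to 4 members of a list in the direction of its median and 2 in the other by smallest shift, and family members and cell type markers. The members and the 66 gene lists were chosen with earlier results of these data known; Fos, Egr1, Jun, H2-Eb1, Ciita, Hspd1, Hspe1, Chordc1, Kit, Rpn1, Nupl1 and Rps2 were named after their values were seen. Positions are from GENCODE M21 (mm10; 11065 of 11483 symbols placed), and promoters and microRNAs from RefSeq (GRCm38.p6).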

Additional observations from a re-analysis of the deposited data

Results flagged for a closer look

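For 4 genes the difference from wild-type was not the same in St6galnac6-/- as in the mean of the other mutants, by limma's test of that difference over all 11483 genes. It was higher by 4.35 (log2) for Klk1b22 and by 2.69 for Psca, and it was -3.85 for Naip6 and -2.104 for Snora64.

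Of 61 gene lists with at least 3 tested members, 16 had medians of opposite sign between the male and the female libraries. With 1 library per sex and genotype this difference was not tested. Higher in the male and lower in the female St6galnac6-/- library were the enteroendocrine hormones (1.08 and -0.11), small intestinal markers (0.51 and -0.41), ribosomal proteins (0.10 and -0.17), gluconeogenesis genes (0.11 and -0.0906), fatty acid oxidation genes (0.0754 and -0.30), T cell markers (0.0165 and -0.23), sialyltransferases (0.0044 and -0.12) and BMP signalling genes (0.0025 and -0.0799). Lower in the male and higher in the female library were cholesterol synthesis genes (-0.54 and 0.14), red blood cell markers (-0.13 and 0.37), MHC class I genes (-0.0875 and 0.0174), glycolysis genes (-0.0233 and 0.0489), histone genes (-0.0127 and 0.13), iron handling genes (-0.0084 and 0.0781), Atf4 targets (-0.0034 and 0.16) and DNA replication genes (-0.0025 and 0.33).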

How the results depend on the processing

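Only 2 libraries stand behind each group, and the calls moved with the settings. Against wild-type, 3 higher and 7 lower genes passed. The counts were 0 and 0 with no filter on low values, 8 and 15 without the replicate block (the sex term), 1 and 7 with no trend in the prior, and 42 and 92 in a fit of the 4 libraries alone. Leaving out 1 library at a time gave 0 to 26 higher genes and 1 to 47 lower genes. The lowest counts came without a wild-type or St6galnac6-/- library and the highest without a B3gnt7-/- library. Removing libraries of the other mutants, and wild-type libraries from the second contrast, was chosen after seeing the data. Against the other mutants 2 higher and 2 lower genes passed; there was 1 lower gene with a pseudocount of 5, with no filter and with no trend, and single libraries left 2 to 20 higher and 1 to 6 lower. Genes with a smallest shift of at least log2 1, 15 higher and 24 lower, became 25 and 39 with a pseudocount of 0.1, and 28 to 84 and 42 to 70 with a library left out, where fewer pairs are compared. The block changed other calls only as these counts show, and same-sex libraries share a sex, not an animal.

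Of values for single named genes 5642 kept direction and side of the threshold, 163 passed it newly, 55 lost it and 7 changed sign. With quantile normalization the log2 difference of Car1 became 0.18 and the log2 difference of Pygb 0.0021. Over the libraries left out in turn, the log2 difference of Acaa1b ran from -0.65 to 0.0394, the log2 difference of Adm from -0.0315 to 0.61, the log2 difference of Ndufa4 from -0.0106 to 0.11, the log2 difference of Il17rb from -0.0289 to 0.54 and the log2 difference of Itln1 from -0.0889 to 1.416. List medians kept their sign in every setting for 35 of 61 lists. The cause of these shifts was not tested.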
